A study of Mus musculus with 18 samples.

Results

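Macrophages sorted from the mouse small intestine with a gate for CD103 were compared with macrophages sorted without it, on 12 of the 18 expression arrays of the study: 6 arrays labelled CD103+ CD11b+ CD64+ and 6 labelled CD11b+ CD64+. The arrays were chosen by their labels alone. The labels of the second set do not name CD103, so they do not say that its cells were CD103-negative. All cells were live, CD45+, CD11c+ and MHCII+ and came from VDTR mice of both sexes, which carry a diphtheria toxin receptor joined to GFP, the green fluorescent protein, in the cells of the gut epithelium. All mice were killed 4 hours after an intraperitoneal dose of 2 ng of the toxin per kg, so the comparison holds no group without toxin. GFP-plus and GFP-minus cells were sorted apart in each gate, with 3 arrays in each of the 4 macrophage groups, and the other 6 arrays hold CD103+ dendritic cells in the same GFP gates. The sources used here do not give the age of the mice. The labels carry an "n value" of 4 of unstated meaning and do not say whether replicates came from separate mice, so a p-value here measures only how far these samples spread, which may be technical.

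CD103 is the alpha chain, encoded by Itgae, of the integrin that binds E-cadherin on epithelial cells. In the intestine it is best known from conventional dendritic cells and intraepithelial lymphocytes, whereas CD64, the high-affinity Fc receptor encoded by Fcgr1, marks macrophages. Macrophages of the lamina propria are renewed from blood monocytes, take up dying epithelial cells and secrete chemokines, complement and enzymes that remodel the matrix; in VDTR mice, GFP in a phagocyte marks material taken up from the epithelium.

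The values are log2 intensities, each given relative to that probe's median over the 18 arrays, so 0 is the typical array and absolute levels cannot be read. Macrophage transcripts matched the labels. Fcgr1 ran from -0.34 to 0.39 on the 12 macrophage arrays and from -5.33 to -3.91 on the dendritic cell arrays, and Csf1r, the receptor for the macrophage growth factor CSF1, ran from -0.41 to 0.74 against -6.25 to -5.23. Flt3, the growth factor receptor of dendritic cells, stayed at 0.97 or less on the macrophage arrays and lay between 3.73 and 4.25 on the dendritic cell arrays.

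The CD103 gate itself was only partly seen in the transcript. Itgae was 3.44, -0.43 and 2.66 on the 3 GFP-minus arrays labelled with CD103 and -0.53, -0.39 and -0.05 on those labelled without. In the GFP-plus gate it was -0.44, -0.15 and 0.05 with the CD103 label and -0.32, -0.44 and -0.29 without, and on the dendritic cell arrays it lay between 4.93 and 5.56. Itgae was thus clearly raised on replicates 1 and 3 of the GFP-minus gate and lay near the level of the gate without CD103 on the other 4 labelled arrays. Over both GFP gates the difference was 1.19 ± 0.60 (SE; limma, adjusted p = 0.863), which missed the threshold. The arrays are therefore called by their label below, CD103-labelled or without the CD103 label, and every difference is the first minus the second.

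**Figure D1:**
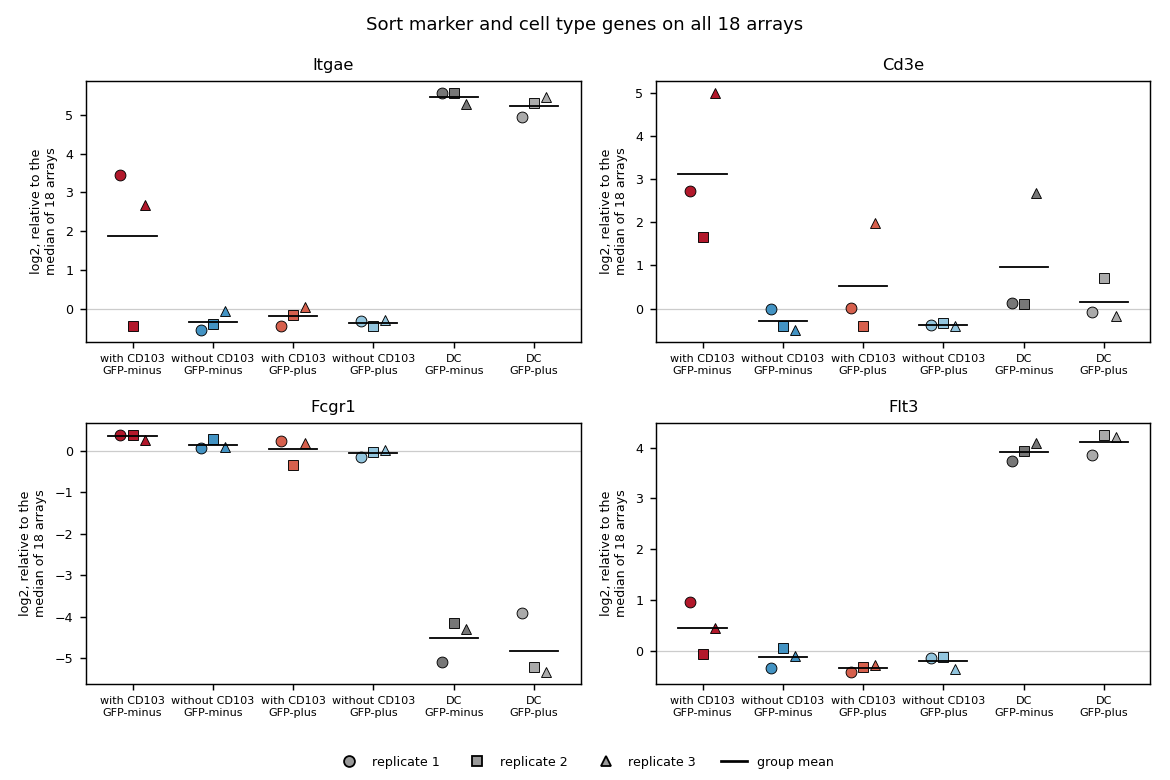
Log2 values of Itgae, Cd3e, Fcgr1 and Flt3 on all 18 arrays (vertical axes, relative to each probe's median), by group; symbols are replicates and bars are group means of 3 arrays. Itgae reached 3.44 and 2.66 on 2 CD103-labelled arrays only, far below the dendritic cell arrays, and the group mean of Cd3e was highest in the GFP-minus CD103-labelled group, although its replicate 2 lay below GFP-plus CD103-labelled replicate 3.

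Transcripts of T cells and innate lymphocytes also stood higher on some of these arrays, and they are given here because they touch several results below. Cd3e, a chain of the T cell receptor complex, was 2.73, 1.66 and 5.0 on the GFP-minus CD103-labelled arrays. In the GFP-plus gate it was 1.99 on replicate 3 with the CD103 label and at or below 0 on replicates 1 and 2. The mean of the 22 measured genes of a T and innate lymphocyte list ran from 0.74 to 1.89 on the GFP-minus CD103-labelled arrays against -0.29 to 0.04 without the label, and in the GFP-plus gate from -0.05 to 0.40 against -0.19 to -0.08. Over both GFP gates 16 of the 22 genes had a difference above 0 and 6 below. At an unadjusted p under 0.05 (limma), 8 were higher and none lower, against 2.65% and 3.56% of all genes. Gzma and Gzmb, granule proteases of cytotoxic lymphocytes, Nkg7, Cd7 and Cd3d were among the 8. Ncr1, a receptor found on natural killer cells, stayed between -0.28 and 0.22 on the 6 CD103-labelled arrays. A stroma and endothelium list had means of 0.07 to 0.36 on the GFP-minus labelled arrays against -0.17 to -0.0050. In the GFP-plus gate it ran from 0.20 to 0.23 against 0.16 to 0.18. Over both gates 14 of its 19 genes had a difference above 0 and 5 below, and 2 were higher and none lower at the same p. The enterocyte list ran from -0.16 to -0.02 against -0.38 to -0.20 in GFP-minus cells. In GFP-plus cells it ran from -0.01 to 0.37 against 0.08 to 0.38. The part of lymphocytes, stroma or epithelium in the results was not tested. In sorted bulk RNA fewer cells of a type and less RNA per cell cannot be told apart.

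With the GFP gate as covariate, C4b and Cd300ld3 rose with the CD103 label and no gene fell (limma, adjusted p under 0.05 over 22180 genes; 0.00902% of genes called higher and 0% lower). At an unadjusted p under 0.05 there were 588 genes higher, or 2.65%, and 790 lower, or 3.56%, which is 6.21% of genes in either direction. On 43 genes, 0.194% of those tested, all 6 CD103-labelled arrays lay above all 6 others, and on 31 genes, 0.14%, all lay below. Within GFP-minus cells alone, where 3 arrays face 3, the labelled arrays lay above on 3.91% of genes and below on 4.49%, and within GFP-plus cells on 6.95% and 6.69%. The median difference over all genes was -0.01.

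C4b encodes complement component C4, which is cleaved when the classical or lectin pathway is triggered and then helps to build the enzyme that activates C3. In the GFP-minus gate it was 3.90, 3.0 and 3.20 on the CD103-labelled arrays and -0.53, -0.16 and -0.56 on the others. In the GFP-plus gate the values were 3.82, 2.97 and 2.55 with the label and 0.45, -0.03 and 0.03 without. The gates did not overlap, and even the lowest labelled array stood more than 2 log2 units above the highest unlabelled one. The difference was 3.37 ± 0.25 (SE, 6 arrays each), a 10.4-fold higher signal, with an adjusted p of 0.000862 in limma. The dendritic cell arrays lay between -0.52 and 0.25, at the level of the macrophages without the CD103 label. On GFP-plus CD103-labelled replicate 1, where C4b was 3.82, the lymphocyte list mean was -0.05, above the -0.19 to -0.08 of the unlabelled GFP-plus arrays. The part of lymphocyte or stroma RNA in C4b was not tested. C4b has a close copy, C4a, whose own probe differed by -0.07 ± 0.17 (adjusted p = 0.980).

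Cd300ld3 belongs to the Cd300 family of paired receptors, immunoglobulin-like proteins of myeloid cells that bind lipids. It was 2.05, 1.14 and 1.60 on the GFP-minus CD103-labelled arrays against 0.12, -0.41 and 0.10. In the GFP-plus gate it was 2.16, 2.37 and 1.63 against -0.10, -0.72 and -0.62. All labelled arrays again lay above all others, and the difference was 2.10 ± 0.23, or 4.27-fold (limma, adjusted p = 0.0225). This call was less firm than that of C4b: it was lost when any 1 of 8 arrays was left out, namely GFP-minus CD103-labelled replicates 1 and 3, GFP-minus unlabelled replicate 2, GFP-plus CD103-labelled replicates 2 and 3 and the 3 GFP-plus unlabelled replicates, with adjusted p from 0.0505 to 0.121. Its relatives with probes of their own did not pass: Cd300ld differed by 0.66 ± 0.26, Cd300lb by 0.29 ± 0.30 and Cd300lf by -0.37 ± 0.42. The array signal is uncertain where members of the family share sequence.

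The promoters of Cd300ld3, Ccl8, Ccl12, Cd163 and Spic, which all stood higher on the labelled arrays in both GFP gates, were searched for motifs, and the 3 that held a match are shown; they are from RefSeq on GRCm38.p6, 5′ to 3′ on the gene's strand, and C4b, Ccl2 and Ccl7 had no entry. Capitals mark GAGGAA or its reverse complement, the core letters bound by PU.1, the factor that defines the myeloid lineage. The windows are chr11:115048420-115048580 on the minus strand, chr11:82114935-82115184 on the plus strand and chr11:82101595-82101844 on the plus strand.
Cd300ld3: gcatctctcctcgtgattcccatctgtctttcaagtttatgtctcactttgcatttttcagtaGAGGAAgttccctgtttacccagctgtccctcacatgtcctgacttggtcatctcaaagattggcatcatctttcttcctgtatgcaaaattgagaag
Ccl8: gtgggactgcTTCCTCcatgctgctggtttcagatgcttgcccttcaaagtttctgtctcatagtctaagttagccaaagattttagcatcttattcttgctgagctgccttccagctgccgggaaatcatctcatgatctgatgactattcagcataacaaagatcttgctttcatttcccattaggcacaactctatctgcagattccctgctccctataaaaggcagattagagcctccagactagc
Ccl12: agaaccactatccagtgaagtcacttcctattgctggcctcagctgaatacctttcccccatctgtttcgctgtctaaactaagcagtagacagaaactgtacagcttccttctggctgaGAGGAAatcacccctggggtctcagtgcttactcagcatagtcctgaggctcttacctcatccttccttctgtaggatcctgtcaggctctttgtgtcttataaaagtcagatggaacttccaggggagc
The Cd300ld3 stretch stops 89 bases short of the start, because those bases lie within the gene's annotated extent. Counted from the start, the match begins 187 bases before that of Cd300ld3, 240 before that of Ccl8 and 130 before that of Ccl12. On either strand, 23.3% of 32851 promoters held GAGGAA in the 250 bases before the start. TTCNNNGAA, the letters bound by STAT factors, was searched in the same way, was held by 7.02% of promoters and was not found in the 3 windows. Neither motif was found in the same windows of Cd163 and Spic.

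Of the next genes by p, 8 that were higher are named without having passed. Cd163, the scavenger receptor for haemoglobin bound to haptoglobin and a marker of resident macrophages, was 2.85, 0.63 and 3.79 on the GFP-minus CD103-labelled arrays against -0.35, -0.12 and -0.14. In the GFP-plus gate it was 5.34, 4.30 and 4.27 against 0.55, 0.38 and -0.13. No labelled array overlapped the others, but GFP-minus replicate 2 was only just above them. Itgae was low on that array and on the GFP-plus labelled arrays, where Cd163 was highest. GFP-minus labelled replicate 2 also had a low weight, 0.505, when arrays were weighted by their spread. The part of either in its Cd163 value was not tested. The difference was 3.50 ± 0.51 (limma, adjusted p = 0.0792). It passed when GFP-minus labelled replicate 2 was left out (3.99, limma adjusted p = 0.00112) but not when any other single array was. In all it passed in 4 of 21 alternative settings, with adjusted p (limma) up to 0.234. Cd163 is near its median on the dendritic cell arrays too, at -0.50 to 0.09.

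Vcam1, an adhesion molecule of resident macrophages in several tissues, was 0.99, 0.91 and 0.28 in GFP-minus cells against -0.22, -0.86 and -0.27, and 1.88, 2.51 and 1.72 in GFP-plus cells against 0.35, 0.66 and 0.22 (1.40 ± 0.20, limma adjusted p = 0.0792). Each GFP gate separated the labels, although the highest unlabelled GFP-plus array exceeded the lowest labelled GFP-minus array. Slamf7, a receptor of the SLAM family, differed by 1.28 ± 0.19, and in each GFP gate its difference was 1.28. Abca9, a lipid transporter of the ABC family, differed by 0.94 ± 0.13, Ctla2b by 1.18 ± 0.17 and Pmp22, a membrane protein also of myelin, by 1.91 ± 0.31. Spic, the transcription factor of red pulp and other iron-handling macrophages, was 2.00, 2.92 and 1.54 in GFP-minus cells against -1.19, 0.31 and -0.45, and 2.83, 3.04 and 1.96 in GFP-plus cells against 1.62, -0.04 and 0.04. Its difference was 2.33 ± 0.38 (limma, adjusted p = 0.139), with 1 overlapping array, unlabelled GFP-plus replicate 1. Gzma had the third smallest p: it was 2.88, 3.36 and 4.49 against -1.15, -1.45 and -1.35 in GFP-minus cells, and 0.72, 2.59 and 1.35 against -1.11, -0.72 and -0.84 in GFP-plus cells. The labels did not overlap for Gzma (3.67 ± 0.49, limma adjusted p = 0.0792), which belongs to the lymphocyte list described above.

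**Figure D2:**
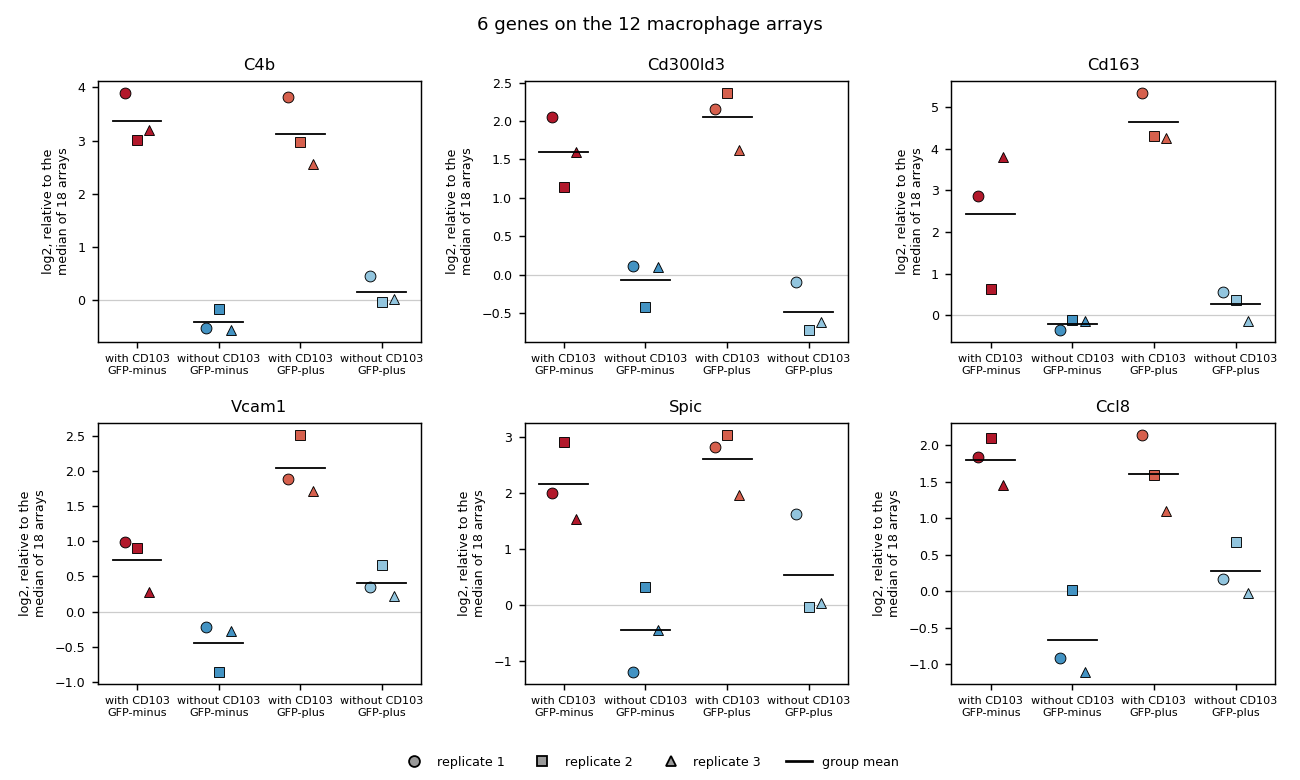
Log2 values relative to the probe median for C4b, Cd300ld3, Cd163, Vcam1, Spic and Ccl8 on the 12 macrophage arrays, by GFP gate and CD103 label; symbols are replicates and bars group means. In all 6 panels the labelled arrays of each GFP gate lie above the unlabelled arrays of that gate.

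No gene passed in the downward direction, and the 10 of smallest p are given as values. Ccl17, the chemokine of CCR4-bearing T cells, was -0.22, -1.71 and -1.39 in GFP-minus cells against 0.82, 1.20 and 0.69, and -3.01, -2.81 and -2.59 in GFP-plus cells against -0.41, -1.83 and -1.74. It differed by -1.74 ± 0.30 (limma, adjusted p = 0.172), and within each GFP gate the labels did not overlap. Pgf, placental growth factor, was 0.19, -1.45 and -1.43 against 0.80, 1.17 and 1.08 in GFP-minus cells, a difference over both gates of -1.55 ± 0.31. Cd9, a tetraspanin, differed by -1.16 ± 0.23 with all 6 labelled arrays below the others. Tlr13, a receptor for bacterial ribosomal RNA, differed by -0.64 ± 0.12, Acy1, an aminoacylase, by -1.47 ± 0.30 and Pxdc1 by -2.06 ± 0.40. The others were Tmem161b at -1.38 ± 0.23, Gm19434 at -2.03 ± 0.36, Fibp at -1.07 ± 0.20 and Eola1 at -1.06 ± 0.22, and the adjusted p of the 10 ran from 0.139 to 0.283 (limma).

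Chemokine genes lay on both sides, with more above 0 than below. Of 20 measured chemokine genes, 10 were higher and 3 lower at an unadjusted p under 0.05, against 2.65% and 3.56% of all genes, and none passed after adjustment (limma, smallest adjusted p = 0.104); the list's median difference was 0.37 beside -0.01 for all genes. Ccl8, Ccl7, Ccl2 and Ccl12, monocyte-attracting chemokines whose genes lie in a cluster on chromosome 11, were all on the higher side. Ccl8 was 1.84, 2.10 and 1.46 in GFP-minus cells against -0.91, 0.02 and -1.10, and 2.14, 1.60 and 1.09 in GFP-plus cells against 0.17, 0.67 and -0.02, with no overlap (1.90 ± 0.29). Ccl7 was 2.09, 2.06 and 1.49 against 0.99, 0.42 and -0.28 in GFP-minus cells, and 2.15, 2.12 and 1.31 against 0.28, -0.93 and -1.23 in GFP-plus cells, again without overlap (2.00 ± 0.33). Ccl2, the main ligand of CCR2, differed by 1.39 ± 0.27 and Ccl12 by 1.22 ± 0.27, both with some overlap between the labels. These 4 genes differed in the same direction in each GFP gate. The counts of list members over both GFP gates that follow are again at an unadjusted p under 0.05. They are to be read against the same 2.65% and 3.56% of all genes. None of the members so counted passed after adjustment over both gates except C4b.

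Other chemokines stood apart from that cluster. Ccl6 differed by 1.40 ± 0.29 and Ccl9 by 1.06 ± 0.42. Ccl5, which lymphocytes also make and which is on the lymphocyte list too, differed by 1.70 ± 0.28, and Ccl3, Ccl4 and Pf4 by 0.37 to 0.56. On the lower side, Ccl24, an eosinophil-attracting chemokine of alternatively activated macrophages, was 0.06, -0.40 and 1.44 in GFP-minus cells against 2.77, 2.33 and 2.07, and -2.80, -0.06 and 0.87 in GFP-plus cells against 2.56, 2.55 and 2.21. All 6 labelled arrays lay below the others, but they spread widely, and the difference was -2.56 ± 0.56 (limma, adjusted p = 0.323). Cxcl10, induced by interferon, differed by -0.55 ± 0.14.

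**Figure D3:**
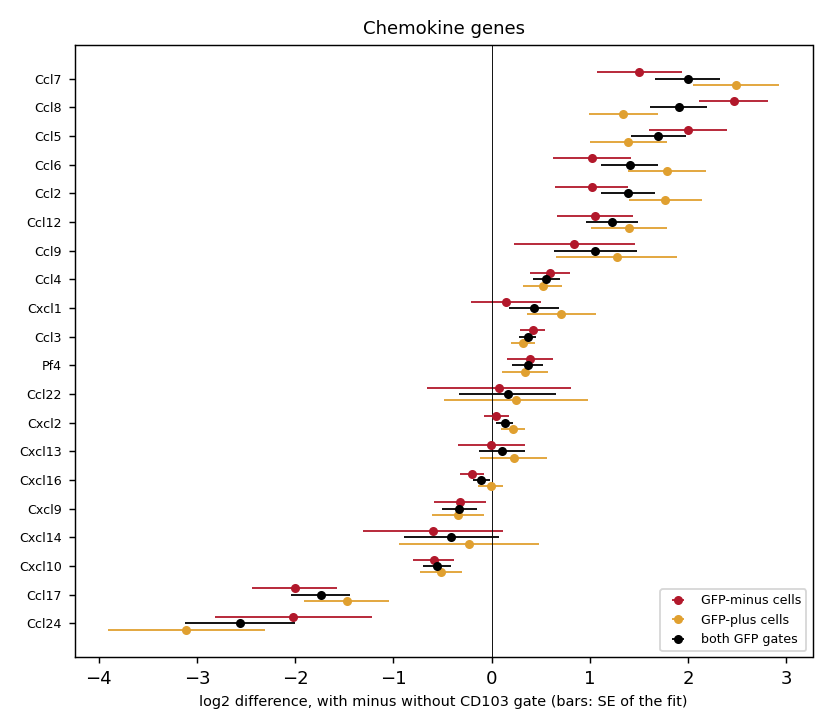
Log2 difference, CD103-labelled minus unlabelled arrays, for the 20 measured chemokine genes in GFP-minus cells, GFP-plus cells and both together; points are fitted differences and bars their standard errors. Ccl7 and Ccl8 lie at the high end and Ccl17 and Ccl24 at the low end in both GFP gates.

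Beyond C4b, no complement gene passed. The complement list had 15 measured members, of which 1 passed and 2 were higher and 1 lower at an unadjusted p under 0.05, with a median of 0.05. C1qa and C1qb, the subunits that start the classical pathway and are made by macrophages, differed by -0.01 ± 0.09 and -0.05 ± 0.12, and C5ar1, the receptor of the C5a fragment, by 0.40 ± 0.13. Itgax, which encodes the CD11c used in the sort and forms complement receptor 4, differed by -0.84 ± 0.25. Among 11 Fc receptor genes 8 had a difference above 0, and 2 of them an unadjusted p under 0.05: Fcrls, an Fc receptor-like protein of resident macrophages, at 1.53 ± 0.29 with no overlap between labels, and the inhibitory receptor Fcgr2b at 0.40 ± 0.10.

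Endocytic receptors went both ways. Of 23 measured C-type lectins and endocytic receptors, 6 were higher and 4 lower at an unadjusted p under 0.05, with a median of 0.13. Clec12a, an inhibitory lectin that senses uric acid crystals, was 0.23, 0.11 and 0.65 in GFP-minus cells against -1.54, -0.58 and -0.95, and -0.11, 0.43 and -0.56 in GFP-plus cells against -1.36, -1.75 and -3.15, a difference of 1.68 ± 0.32 (limma, adjusted p = 0.231) that left the lowest labelled array just above the highest unlabelled one. Mrc1, the mannose receptor, differed by 0.64 ± 0.16, while Cd209b, a relative of human DC-SIGN, differed by -0.84 ± 0.21 and Clec4n, which encodes dectin-2, by -0.81 ± 0.21. Among 28 genes of apoptotic cell uptake, 17 had a difference above 0 and 11 below; 3 were higher and 1 lower at an unadjusted p under 0.05, with a median of 0.06. Cd36, the scavenger receptor, differed by 1.43 ± 0.39 and Gas6, the bridge to the kinases Axl and Mertk, by 1.26 ± 0.42. Mfge8, another bridging protein, differed by -0.79 ± 0.25.

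No gene of the inflammatory list passed. Of 24 measured, 16 had a difference above 0 and 8 below; 7 were higher (2.65% of all genes) and 3 lower (3.56%) at an unadjusted p under 0.05, with a median of 0.15 and no adjusted p under 0.412 (limma). Nfkbiz and Nfkbia, both induced by NF-kappaB, differed by 0.64 ± 0.15 and 0.40 ± 0.11, Socs3 by 0.62 ± 0.19 and Tnf by 0.42 ± 0.17, whereas Il1b differed by -0.23 ± 0.10 and Ptgs2 by -0.46 ± 0.18. Of 22 genes induced by tissue dissociation 16 had a difference above 0, and 3 of them an unadjusted p under 0.05, Egr1 at 0.50 ± 0.14, Ier3 at 0.61 ± 0.19 and Klf2 at 0.80 ± 0.35; its part in these values was not tested. Among 18 Toll-like receptor pathway genes, 8 with a difference above 0 and 10 below, 3 were higher and 3 lower at an unadjusted p under 0.05. Ticam2, the adaptor that links TLR4 to interferon, differed by 1.79 ± 0.37, and Tlr2 by 1.28 ± 0.34. Of 19 genes of the interleukin 1 and inflammasome list, 6 had a difference above 0 and 13 below, with a median of -0.18. At an unadjusted p under 0.05, 1 was higher and 5 lower over both GFP gates. In GFP-minus cells there were none in either direction, beside 2.72% of all genes higher and 2.58% lower in that gate. In GFP-plus cells 3 were lower and none higher, beside 1.92% of all genes higher and 3.03% lower. Over both gates Nlrc4, the inflammasome sensor of flagellin, differed by -1.23 ± 0.44 and Il1r2, the decoy receptor, by -0.98 ± 0.37.

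Of 26 lineage transcription factors, 13 had a difference above 0 and 13 below, with a median of 0.02; 5 were higher (2.65% of all genes) and 3 lower (3.56%) at an unadjusted p under 0.05. Next to Spic, Bcl6 differed by 1.12 ± 0.44, and on the lower side Nr1h3, the oxysterol receptor LXR alpha, differed by -0.95 ± 0.26 and Bhlhe40 by -0.90 ± 0.32. The list of 18 measured macrophage core genes had a median of -0.04, with 2 higher and 1 lower at an unadjusted p under 0.05, and the 22 genes of mature intestinal macrophages one of 0.02, with 4 higher and 2 lower at that p. Cx3cr1, the fractalkine receptor of these cells, differed by -0.05 ± 0.11. The monocyte list had 1 of 13 members higher at that p, F13a1 at 0.87 ± 0.31, and Ccr2, which monocytes use to leave the marrow, differed by 0.08 ± 0.25.

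No gene of the dendritic cell lists passed. The conventional dendritic cell list had a median of -0.17, with 2 higher and 3 lower of 15 at an unadjusted p under 0.05. The type 1 list had a median of -0.05, with none higher and 1 lower of 13 at that p. Of 17 type 2 genes, 10 had a difference above 0 and 7 below, with a median of 0.05. At the same p 3 were higher, among them Cd7 of the lymphocyte list, and none lower. In GFP-minus cells the mean of the type 2 list ran from 0.34 to 0.68 with the label against 0.10 to 0.31 without. Cd7, whose difference in that gate is given below, is part of this mean. In GFP-plus cells it was -0.53, 0.17 and 0.10 on labelled replicates 1, 2 and 3 against -0.21 to -0.01 without. GFP-plus labelled replicate 1 is the array of lowest weight described below. The mean of the type 1 list ran from -1.16 to -0.07 on the 6 labelled arrays against 1.57 to 2.35 on the dendritic cell arrays. The value of -1.16 was that of GFP-plus replicate 1, and replicates 2 and 3 of that group had -0.22 and -0.10. Of 18 measured genes of MHC class II and T cell costimulation, 7 had a difference above 0 and 11 below, with a median of -0.13. The list's median was 0.03 in GFP-minus cells and -0.09 in GFP-plus cells. Its mean was -0.79 on GFP-plus labelled replicate 1 and -0.13 and 0.01 on replicates 2 and 3. At an unadjusted p under 0.05 over both gates, 1 was higher and 3 lower. Among the lower, Cd80 differed by -1.28 ± 0.33 and Pdcd1lg2, which encodes PD-L2, by -0.99 ± 0.32, the latter with all labelled arrays below the others. Of 22 genes tied to CD103 and TGF-beta, the cytokine that induces CD103, 2 were higher and 1 lower at an unadjusted p under 0.05: Cdh1, the E-cadherin that CD103 binds, at 0.32 ± 0.13, Tgfbr2 at 0.58 ± 0.25 and Tgfb1 at -0.44 ± 0.19.

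No enzyme of lipid mediators passed. Alox5, the 5-lipoxygenase that starts leukotriene synthesis, was 2.79, 0.23 and 2.00 in GFP-minus cells against -0.43, -0.23 and 0.10, and 1.16, 2.46 and 1.86 in GFP-plus cells against 0.82, -0.03 and -0.21 (1.75 ± 0.40; limma, adjusted p = 0.376). Its partner Alox5ap differed by 1.50 ± 0.42, and Ltc4s, which makes leukotriene C4, by -1.30 ± 0.37. Hpgd, which degrades prostaglandins, differed by 0.83 ± 0.16. In all, 8 of 17 genes had a difference above 0 and 9 below, with a median of -0.04; 4 were higher (2.65% of all genes) and 4 lower (3.56%) at an unadjusted p under 0.05. Of 19 proteases and inhibitors, 7 had a difference above 0 and 12 below; 3 were higher and 6 lower at the same p. Mmp2, Mmp9, Mmp12 and Mmp13, enzymes that cut matrix proteins, differed by -1.60, -0.69, -0.90 and -0.69, and Adamdec1, a protease typical of gut macrophages, by -1.15 ± 0.24. Timp2, an inhibitor of such enzymes, differed by 1.54 ± 0.43.

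The metabolic lists had medians below 0. All 26 measured genes of the respiratory chain had a difference below 0 over both GFP gates, with a median of -0.39, but only 3 had an unadjusted p under 0.05 (Atp5b at -0.31 ± 0.13, Ndufv1 at -0.51 ± 0.23 and Uqcrfs1 at -0.57 ± 0.26) and none passed (limma, smallest adjusted p = 0.775). The list's median was -0.05 in GFP-minus cells and -0.76 in GFP-plus cells. GFP-plus replicate 1 with the CD103 label had a list mean of -1.50, against -0.22 and -0.28 for replicates 2 and 3, and without it the median over both gates was -0.20. That array also had the lowest weight of the 12, 0.305, when arrays were weighted by their spread. Of 19 cholesterol genes 15 had a difference below 0, with a median of -0.45 that came to -0.24 without the same array; it was -0.0026 in GFP-minus cells and -0.91 in GFP-plus cells. At an unadjusted p under 0.05, 5 were lower (3.56% of all genes) and none higher: Nr1h3, given above, and 4 enzymes of cholesterol synthesis. Msmo1, Sc5d, Sqle and Cyp51 differed by -1.72, -1.65, -0.78 and -1.12. The lysosome list had 3 of 29 lower at that p and a median of -0.07, with Ctsl, a cathepsin, at -0.49 ± 0.10. Lists of glycolysis, ribosomal proteins and the cell cycle held no member with an unadjusted p under 0.05, and their medians were -0.16, -0.03 and -0.03.

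**Figure D4:**
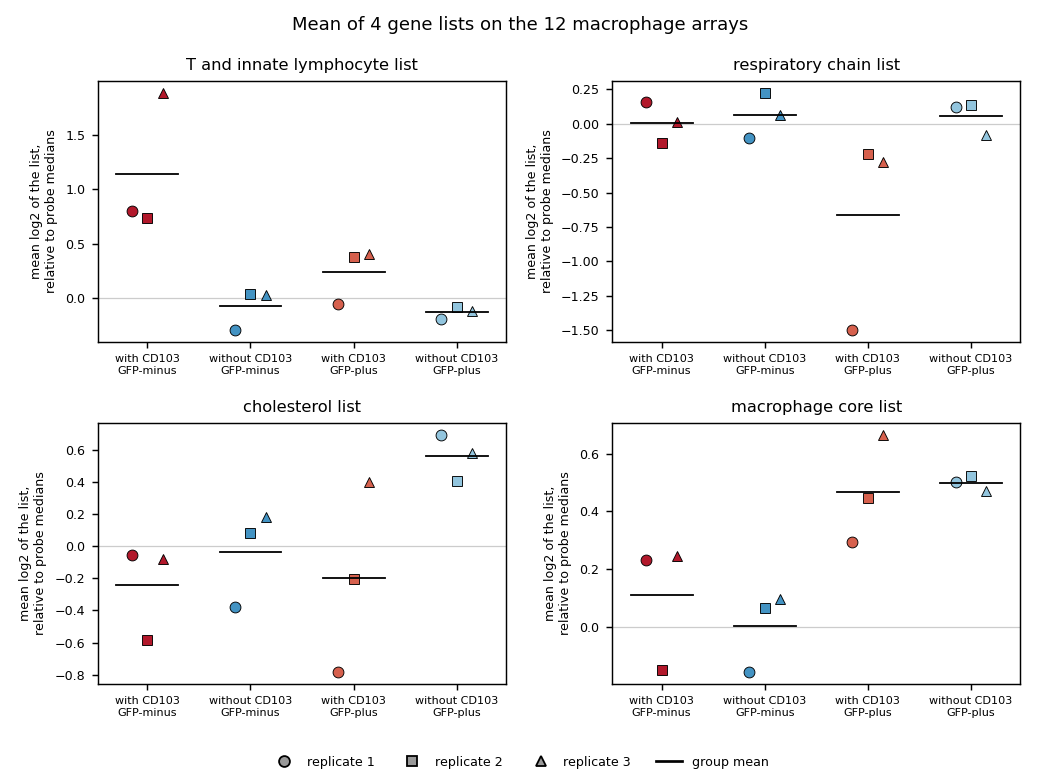
Mean log2 value of the T and innate lymphocyte, respiratory chain, cholesterol and macrophage core lists on the 12 macrophage arrays, relative to probe medians; symbols are replicates and bars group means. The lymphocyte list was highest on the 3 GFP-minus CD103-labelled arrays, and GFP-plus CD103-labelled replicate 1 had the lowest respiratory chain mean, at -1.50.

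Each GFP gate was also fitted apart. In GFP-minus cells 3 genes rose with the CD103 label, C4b, Septin1 and Gzma, and none fell (limma, 0.0135% of genes called; 1176 genes, or 5.3%, at an unadjusted p under 0.05, of which 2.72% were higher and 2.58% lower). C4b differed by 3.78 ± 0.33 (adjusted p = 0.00917). Septin1, a filament protein abundant in lymphocytes, was 1.47, 2.24 and 1.86 with the label against -0.44, -0.11 and -0.02 without, a difference of 2.05 ± 0.20 (adjusted p = 0.00917). Gzma differed by 4.89 ± 0.48 with the same adjusted p. Cd7 (3.25 ± 0.45) and Fkbp1b (3.51 ± 0.49) came next without passing, each with an adjusted p of 0.132. In this gate 9 of the 22 lymphocyte genes had an unadjusted p under 0.05, all higher, and the list's median was 0.70 beside -0.01 for all genes; the part of lymphocyte RNA in the calls of Septin1 and Gzma was not tested. On the lower side Gnaq, a G protein subunit, differed by -1.34 ± 0.20 and Adamdec1 by -1.65 ± 0.27, neither passing; Mir350, Olfr76 and Gm5124 differed by -1.29, -0.82 and -0.77. Leaving out GFP-minus unlabelled replicate 1 left no gene called in this gate, and leaving out CD103-labelled replicate 2 gave 9. The weights of these arrays were 0.465 and 0.505, and the labelled one also had a low Itgae. The part of either in these counts was not tested.

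In GFP-plus cells no gene passed (limma, 0% called; 1098 genes, or 4.95%, at an unadjusted p under 0.05, with 1.92% higher and 3.03% lower), and C4b and Cd300ld3 came nearest, both with an adjusted p of 0.0514. C4b differed by 2.97 ± 0.33, Cd300ld3 by 2.53 ± 0.28, Cd163 by 4.37 ± 0.65, Tlr2 by 2.10 ± 0.34 and Pmp22 by 2.44 ± 0.39. The 5 of smallest p below 0 were Antxr1, an anthrax toxin receptor, at -1.08 ± 0.13, Pip4k2b at -2.03 ± 0.33, Slc36a1 at -1.47 ± 0.25, Atg13 at -1.16 ± 0.21 and Rassf8 at -0.92 ± 0.17. Other settings called between 0 and 12 genes in this gate, so the count of 0 depends on the setting.

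The CD103-label difference itself was tested between GFP gates, and no gene passed (limma, 0% called; 934 genes, or 4.21%, at an unadjusted p under 0.05, with 2.39% upward and 1.82% downward; smallest adjusted p = 0.370). Septin1 had the smallest p upward, 2.05 in GFP-minus and 0.06 in GFP-plus cells, a difference of 1.99 ± 0.28, and Gnaq the smallest downward, -1.34 against 0.62. The interaction was 0.82 ± 0.46 for C4b, -0.87 ± 0.40 for Cd300ld3, -1.74 ± 0.92 for Cd163 and 2.45 ± 0.67 for Gzma, all with an adjusted p of 0.981. The arrays of the 2 GFP gates are separate, and of all genes 51.5% differed in the same direction in both. Among the 154 genes with an unadjusted p under 0.05 in each gate, 123, or 79.9%, shared their direction: 59 were higher in both, 0.266% of genes tested, 64 were lower in both, 0.289%, and 31 went opposite ways.

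**Figure D5:**
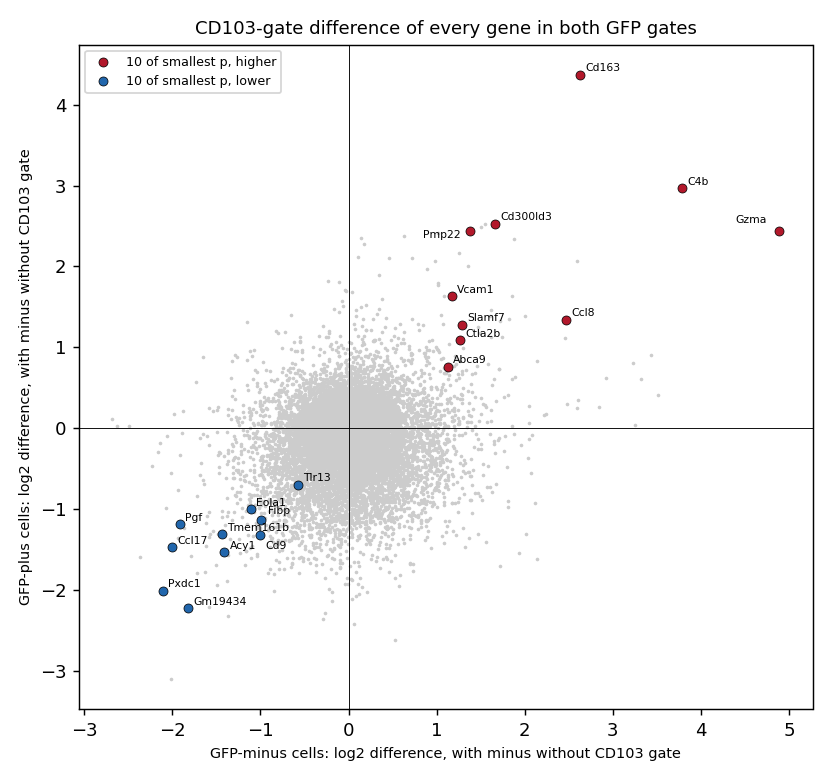
Log2 difference of every gene, CD103-labelled minus unlabelled arrays, in GFP-minus cells (horizontal axis) and in GFP-plus cells (vertical axis); coloured points are the 10 higher and 10 lower genes of smallest p over both gates. C4b, Cd163 and Gzma lie far from the cloud, Cd163 higher in GFP-plus and Gzma higher in GFP-minus cells, and neither of those gate differences passed the test.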

How the data were processed

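The authors deposited 1 table of 33793 probes as log2 values, centred on each probe's median over 18 arrays; base 2 was inferred from the values, where a probe spans up to 10.15 units. RNA was amplified from 1 ng with WT Ovation Pico, per the labels' protocols. The sources used here do not name the software or normalization behind the table. Probes with 1 gene symbol (23521) were averaged per gene, giving 22180 genes; 1814 probes with several symbols and 8458 with none were tested apart. Arrays were grouped by label, limma 3.58.1 in R 4.3.3 was fitted with the CD103 label and GFP gate on 12 arrays (9 residual degrees of freedom), and group means gave each gate and the interaction (8). P-values were adjusted by Benjamini-Hochberg over all genes, threshold 0.05, and the procedure was tested on simulated data. The number of arrays limits the precision. Named genes are those past the threshold or, where fewer than 5 passed in a direction, the 10 of smallest p (5 within a gate), plus sort markers and up to 4 of smallest p per list; further list members, relatives of called genes and other cell markers named in the text were chosen after their values were seen. The comparison and the 42 gene lists were chosen with earlier results of these data known. Alternatives were 9 settings and leaving out each of 12 arrays. No 2 arrays were identical.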

Additional observations from a re-analysis of the deposited data

Results flagged for a closer look

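A probe outside the gene tests stood out. The probe 17271757 is annotated to 4 Cd300 genes, Cd300ld3 among them, and was therefore kept out of the test by gene. It was 3.43, 2.71 and 3.21 on the GFP-minus CD103-labelled arrays against 1.01, -0.14 and -0.08, and 3.65, 3.86 and 3.02 on the GFP-plus CD103-labelled arrays against 1.02, 0.08 and -0.18. The labels did not overlap, and the difference was 3.03 ± 0.28 (limma, adjusted p = 0.00422 over 10272 such probes), the only one of them to pass, with 477 at an unadjusted p under 0.05. A second probe of the same 4 genes differed by 3.13 ± 0.42 (limma, adjusted p = 0.0508). Which of the 4 genes gives the signal cannot be told apart from these probes.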

How the results depend on the processing

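C4b was called in all 21 alternative settings run, with differences from 3.01 to 3.80 and adjusted p (limma) up to 0.0184; Cd300ld3 was called in 11 of 21, and lost with quantile normalization (0.0891) and without the 2 arrays of weight under 0.5 (0.0776). Against 2 genes called over both GFP gates, fitting all 18 arrays gave 16 (14 higher, 2 lower), array weights 6, leaving out the 2 low-weight arrays 1, testing only genes above the median in variability 11, and leaving out 1 array 1 to 5. In GFP-minus cells, against 3, quantile normalization gave 1, the low-weight arrays left out 1, the variable genes 6, and leaving out 1 array 0 to 9. In GFP-plus cells, against 0, the 18 arrays gave 9, quantile normalization 12, centred columns 3, array weights 4, the low-weight arrays left out 1, the variable genes 3, and leaving out 1 array 0 to 5. For the interaction, against 0, leaving out 1 array gave 0 to 1. Of list members, against 1 called, the 18 arrays gave 8, quantile normalization 2, array weights 4, the variable genes 7, and leaving out 1 array 1 to 3. With the replicate number as a block, 4 genes were called over both gates, 5 in GFP-minus cells, 3 in GFP-plus cells and 2 among list members. Within a GFP gate, labelled and unlabelled arrays of the same number correlated at -0.05 to 0.34. Those of different numbers correlated at -0.36 to 0.29. With so few arrays, whether the numbers pair the samples cannot be told from these values. The difference of Ptprc, -0.05 in the fit as reported, changed sign with array weights (0.0140), and without 1 array it ran from -0.2150 to 0.1055; that of H2-Ab1 ran from -0.0066 to 0.0314 without 1 array. The single genes followed through the settings were the 10 higher and 10 lower of smallest p and the sort markers. Each gene in each setting counts as 1 result. Among their other results, 526 kept direction and side of the threshold, 22 came to pass and 10, all of Cd300ld3, no longer passed. The cause of these shifts was not tested.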
